A study of Drosophila melanogaster with 12 samples.

Results

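Genes that mark neurons and glia were followed through a light-dark day and a day in constant darkness in fly heads. The list holds 8 genes, 4 of neurons (elav, nSyb, ChAT and Gad1) and 4 of glia (repo, Eaat1, Gs2 and nrv2). Members were the probe sets that the platform annotation assigns to one of these symbols, and each gene was read through whichever of its probe sets was brightest on average. In all, 7 of the 8 genes had a probe set (8 probe sets, 2 of them for ChAT), among 10844 genes and 13966 probe sets tested. No probe set carries the symbol Eaat1, so the glial side rests on 3 genes and Eaat1 was not analysed here.

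All flies, in light and in darkness, carried y w and tim01, a mutation of timeless that stops the molecular clock. Wild-type flies were not analysed here, and the labels used here give no sex or age. After 3 days of 12 h light and 12 h dark, about 100 to 200 heads were pooled per time point. Sampling ran at 4 h steps over a light-dark day (LD, hours ZT2 to ZT22) and then a day in constant darkness (DD, hours CT2 to CT22), with 1 array each. The 12 arrays make 4 groups of 3: LD light phase (ZT2, ZT6, ZT10), LD dark phase (ZT14, ZT18, ZT22), DD subjective day (CT2, CT6, CT10) and DD subjective night (CT14, CT18, CT22). The arrays of a group are different hours, so SDs, SEs and p-values measure the spread between hours of a phase, technical differences included. On each day the light or subjective-day hours came before the dark or subjective-night hours, and DD came after LD. Differences between phases or days therefore cannot be told apart from drift with sampling order or from the single sampling of each day. Values are log2 RMA signals as deposited, a scale on which arrays share nearly one distribution. In whole heads, fewer cells of a type and less RNA per cell cannot be told apart.

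Neurons and glia are the main cell classes of the brain, and the compound eye adds photoreceptors, which are neurons too. Neurons release transmitter from vesicles that fuse through synaptobrevin, and many central synapses of insects use acetylcholine or GABA. Glia insulate neurons, form the blood-brain barrier, hold ion gradients and take up released glutamate, which they turn into glutamine.

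As a check of the tissue, 10 of 17 photoreceptor genes had a probe set, and the arrestin gene Arr2 and the light-gated channel gene trp averaged 11.94 and 9.41, far above the array medians of 4.10 to 4.14. Transcripts of the male reproductive tract stood high on 3 arrays. Centred gene by gene, the log2 level of 21 such genes averaged 0.27 to 0.75 at ZT2, ZT18 and CT2 and -0.21 to -0.05 on the other 9 arrays. That of 30 gut genes was 0.62 at ZT2 and 0.37 at CT2, against -0.20 to 0.03 elsewhere. The 3' minus 5' signal of the eIF-4a control, a measure of RNA integrity or labelling, was 2.89 to 3.32 in LD and 2.56 to 3.04 in DD. Its means were 3.15 in LD and 2.80 in DD. As a covariate it therefore overlaps with the difference between the days, and such a fit cannot fully separate them. The centred level of 13 muscle genes was -0.15 to 0.03 in LD and -0.03 to 0.14 in DD. The differences between the days are given at the end also without those 3 arrays and with the tissue levels or eIF-4a as a covariate, and beyond that their part in the results was not tested.

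None of the 7 genes passed in any of the 9 tests across all probe sets (0 of 7 in each, limma with Benjamini-Hochberg adjustment, threshold 0.05 on the adjusted p). Few probe sets passed at all: 0.0215% between the days, 0.129% between light and dark phase in LD, 0.0644% between subjective day and night in DD, and 0.186% between light phase and subjective day. In the dark phase against the subjective night 0% passed (0 of 13966, 680 with an unadjusted p under 0.05). The nearest were repo, nSyb and Gad1 between the days: repo read 1.22-fold lower in DD, nSyb 1.16-fold higher and Gad1 1.12-fold higher. With p not adjusted for the number of probe sets, 4 of the 7 lay under 0.05 between the days, against 11.1% of all probe sets. The plot of the members by time point shows each of them.

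**Figure D1:**
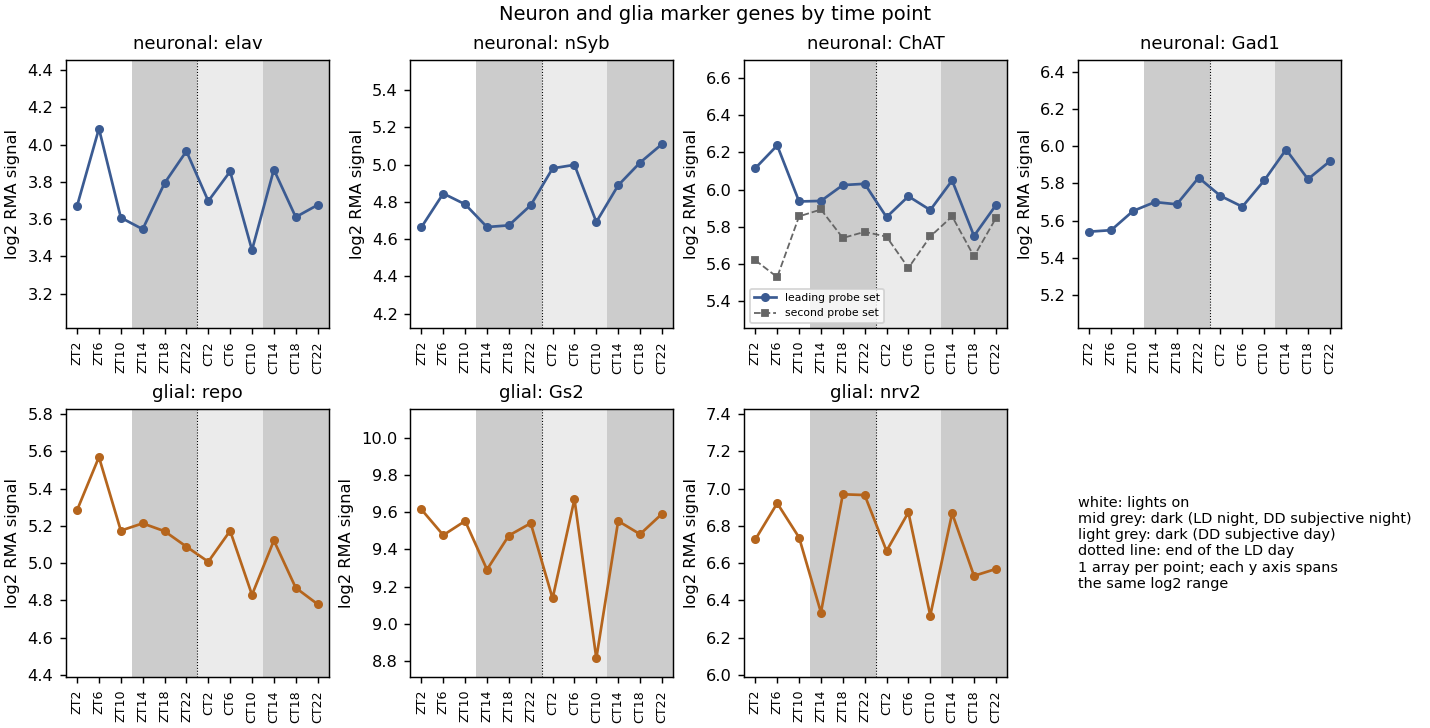
Log2 RMA signal (vertical axis, same span in each panel) of the 4 neuronal genes (blue) and the 3 glial genes (brown) at the 12 time points, 1 array per point. The line of repo is highest at ZT6 (5.57) and lowest at CT22 (4.78), with rises between them. Gad1 reads 5.54 at ZT2 and 5.92 at CT22, and Gs2 dips to 8.82 at CT10.

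The neuronal RNA-binding protein gene elav, which encodes a splicing regulator used as a general label of neurons (probe set 154632_at), read 3.67, 4.09, 3.61, 3.55, 3.79 and 3.97 from ZT2 to ZT22. In DD it read 3.70, 3.86, 3.43, 3.87, 3.61 and 3.68 from CT2 to CT22. The highest value was that of ZT6 and the lowest that of CT10, and the 2 days overlapped. The signal was below the array median on all 12 arrays, a range in which RMA compresses differences. Means by phase were 3.79 ± 0.26, 3.77 ± 0.21, 3.66 ± 0.21 and 3.72 ± 0.13 for LD light, LD dark, DD day and DD night (SD, 3 arrays each), closer to each other than the hours within a group.

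Synaptic vesicle fusion in neurons needs neuronal synaptobrevin, encoded by nSyb (151978_at). Its LD values were 4.66, 4.85, 4.79, 4.67, 4.67 and 4.78, and its DD values 4.98, 4.999, 4.69, 4.89, 5.01 and 5.11. In DD, 5 of 6 arrays read above every LD array, and CT10 was the exception. LD averaged 4.74 ± 0.08 and DD 4.95 ± 0.14 (SD over 6 arrays), a difference of 0.21 ± 0.06 (SE, limma, adjusted p = 0.212, 95% confidence interval 0.08 to 0.34). At night the gap was 0.30 (limma, adjusted p = 0.998), with 4.71 ± 0.07 in the LD dark phase and 5.003 ± 0.11 in the DD subjective night (SD, n = 3 arrays each). In this comparison 4.87% of all probe sets had an unadjusted p under 0.05, and 0% passed after adjustment. The 3 arrays of one group did not overlap those of the other, and the share of all probe sets separated in this way was not counted.

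Acetylcholine is made by choline acetyltransferase, the product of ChAT. Its leading probe set (142522_at) read 6.12, 6.24, 5.94, 5.94, 6.02 and 6.03 in LD and 5.85, 5.96, 5.89, 6.05, 5.75 and 5.92 in DD. The second probe set (151604_s_at) read 5.62, 5.53, 5.86, 5.89, 5.74 and 5.77 in LD and 5.75, 5.58, 5.75, 5.86, 5.64 and 5.85 in DD. The probe sets disagreed: at ZT6 the leading one had its highest value and the other its lowest. Between the days the leading one differed by -0.14 ± 0.06 (SE, limma, adjusted p = 0.4), lower in DD at 5 of 6 clock hours, and the second by 0.00 ± 0.06 (adjusted p = 0.997), lower at 3 of 6. Statements about ChAT therefore hold for 1 probe set only.

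Gad1 encodes glutamic acid decarboxylase, the enzyme that makes GABA (143478_at). From ZT2 to ZT22 it read 5.54, 5.55, 5.65, 5.70, 5.69 and 5.83, and from CT2 to CT22 5.73, 5.68, 5.82, 5.98, 5.82 and 5.92. The 2 earliest arrays were the lowest, and the highest was CT14. Group means ran upward in the order of sampling, 5.58 ± 0.06 in the LD light phase, 5.74 ± 0.08 in the LD dark phase, 5.74 ± 0.07 in the DD subjective day and 5.91 ± 0.08 in the DD subjective night (SD, n = 3 arrays each). Dark phase and subjective day did not differ beyond their spread. Phase and day follow the order of sampling, so they cannot be told apart from a drift along it.

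The Gad1 signal was lower in the light phase than in the dark phase by 0.16 in LD (limma, unadjusted p = 0.043, adjusted p = 0.792). In this comparison 6.26% of all probe sets had an unadjusted p under 0.05. The 3 light-phase arrays did not overlap the 3 dark-phase arrays, and the share of all probe sets separated in this way was not counted. The adjusted test passed for 0.129% of all probe sets. In DD the subjective day was lower by 0.17 (adjusted p = 0.825). The LD and DD contrasts differed by 0.01 ± 0.10 (SE, adjusted p = 0.999, 95% confidence interval -0.21 to 0.22). Between the days the difference was 0.16 ± 0.05 (SE, adjusted p = 0.233, interval 0.06 to 0.27), and DD read higher at 6 of 6 clock hours, by 0.09 to 0.28.

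Among the glial genes, repo encodes a homeodomain factor found in nearly all lateral glia of the fly (152011_at). Its signal was 5.29, 5.57, 5.18, 5.21, 5.17 and 5.09 in LD and 5.01, 5.17, 4.83, 5.12, 4.87 and 4.78 in DD. ZT6 stood highest and CT22 lowest, and the days overlapped between 5.09 and 5.17. DD was lower at 6 of 6 clock hours, by 0.09 to 0.40, and the LD and DD averages were 5.25 ± 0.17 and 4.96 ± 0.16 (SD over 6 arrays). The difference was -0.29 ± 0.08 (SE, limma, adjusted p = 0.176, 95% confidence interval -0.45 to -0.12), or 1.22-fold.

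By group, repo went from 5.34 ± 0.20 in the LD light phase through 5.16 ± 0.06 in the LD dark phase and 5.004 ± 0.17 in the DD subjective day to 4.92 ± 0.18 in the DD subjective night (SD, n = 3 arrays each). Neighbours in this order did not differ beyond their spread. As for Gad1, phase and day cannot be told apart from a drift along it. The light phase was above the DD subjective day by 0.34 ± 0.11 (SE, limma, adjusted p = 0.247), where 0.186% of all probe sets passed.

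Glutamine synthetase 2, which converts glutamate to glutamine, is encoded by Gs2 (143181_at). The signal read 9.61, 9.48, 9.55, 9.29, 9.47 and 9.54 in LD. In DD it read 9.14, 9.67, 8.82, 9.55, 9.48 and 9.59. CT2 and CT10 were the lowest arrays and CT6, between them, the highest, so that the DD subjective day had a mean of 9.21 ± 0.43 against 9.54 ± 0.06 in the DD subjective night (SD, n = 3 arrays each).

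That contrast of Gs2 was -0.33 ± 0.14 (SE, limma, adjusted p = 0.825), in a comparison in which 0.0644% of all probe sets passed. The LD contrast of 0.11 differed from it by 0.45 ± 0.20 (SE, adjusted p = 0.935), and there 0% of all probe sets passed (0 of 13966, 727 with an unadjusted p under 0.05). Against the LD light phase, the DD subjective day was lower by 0.34 (adjusted p = 0.375). A single array decided these values: without CT10 the difference between light phase and subjective day was 0.14 (adjusted p = 0.853), and without CT6 it was 0.57 and passed (adjusted p = 0.0164). Without CT10 the day-night contrast in DD was -0.14, and without CT6 it was -0.57.

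The beta subunit gene nrv2, whose product belongs to the sodium pump and whose promoter is used to label glia (152490_at), read 6.73, 6.92, 6.74, 6.34, 6.97 and 6.97 in LD and 6.67, 6.87, 6.32, 6.87, 6.53 and 6.57 in DD. The lowest arrays were ZT14 and CT10. In the order used for elav, the phases averaged 6.80 ± 0.11, 6.76 ± 0.37, 6.62 ± 0.28 and 6.66 ± 0.18 (SD over 3 arrays). Between the days the difference was -0.14 ± 0.11 (SE, limma, adjusted p = 0.686), with DD lower at 5 of 6 clock hours.

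**Figure D2:**
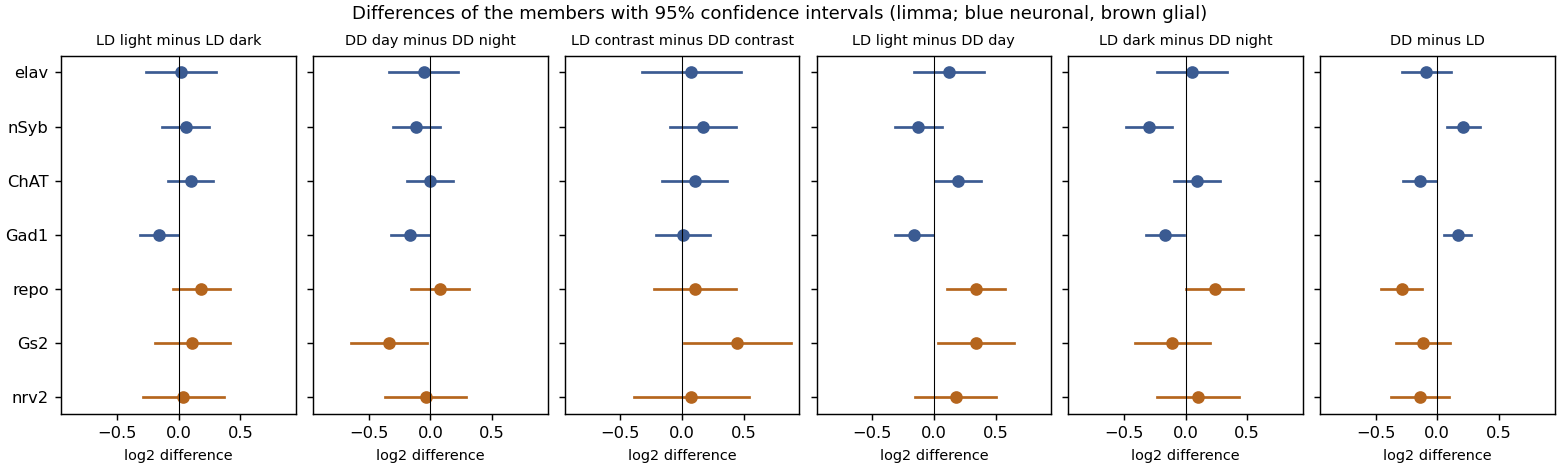
Log2 differences (horizontal axis) of the 7 genes in 6 comparisons, with limma's 95% confidence intervals not adjusted for the number of genes. Intervals leave out 0 for nSyb, ChAT, Gad1 and repo in DD minus LD, while none of the 7 passed after adjustment over all probe sets.

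Intervals were wide beside the values. For elav, between light and dark phase in LD, the difference of 0.02 had an interval of -0.26 to 0.30, and for nrv2 that of 0.04 had one of -0.29 to 0.37. These intervals are not adjusted for the number of probe sets, and differences whose interval left out 0 did not pass either. All 7 members varied more between arrays than the median probe set, whose SD over the 12 arrays was 0.11. That SD was 0.24 for Gs2, 0.23 for nrv2, 0.22 for repo and 0.19 for elav, larger than for 97.9%, 97.4%, 96.9% and 94.2% of all probe sets. For nSyb, Gad1 and ChAT it was larger than for 87.6%, 78.0% and 71.2%. These shares are over probe sets of every signal level, and probe sets of like level were not compared.

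No 24 h rhythm passed for any of the 7 genes, in LD or in DD, where 0.107% and 0.00716% of all probe sets passed (moderated F test in limma, lowest adjusted p of the 7 genes 0.994 and 1.00). Fitted amplitudes, from mean to peak on the log2 scale, were 0.06 to 0.18 in LD and 0.02 to 0.17 in DD. The median over all probe sets was 0.07 on each day. In DD, nSyb had an amplitude of 0.16 with a fitted peak at 22.6 h. The difference of the rhythms between LD and DD passed for 0 of the 7 and for 0.00716% of all probe sets.

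Set side by side at the same clock hour, DD minus LD averaged -0.29 for repo, -0.14 for nrv2 and -0.12 for Gs2, negative for all 3 glial genes. For Gs2 this rested on CT10: DD was higher at 4 of 6 hours, and without CT10 the difference was -0.02. With eIF-4a as a covariate it was 0.05 for Gs2 and 0.01 for nrv2. Of the 4 neuronal genes, Gad1 and nSyb had positive means, and ChAT (-0.14) and elav (-0.09) negative ones. Of the 7 genes, repo and Gad1 kept one sign at all 6 hours, and the share of all probe sets that did so was not counted. At hour 14 the difference was the highest of the 6 hours for nrv2 (0.53), elav (0.32) and Gs2 (0.26). Whether neuronal and glial genes differ in this was not tested.

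**Figure D3:**
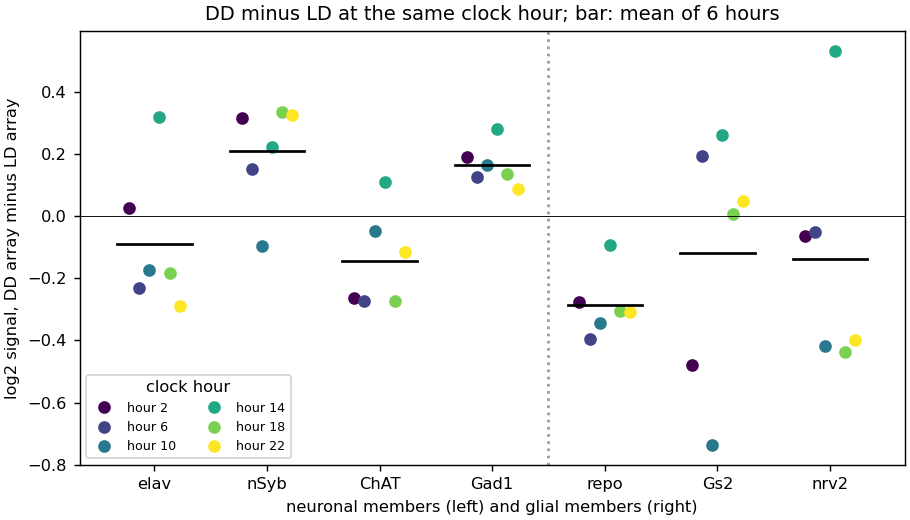
DD array minus LD array of the same clock hour (vertical axis, log2) for each of the 7 genes, 1 point per hour, with a bar at the mean of the 6 hours. The points of repo lie between -0.40 and -0.09 and those of Gad1 between 0.09 and 0.28, while those of Gs2 span -0.74 to 0.26.

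Averaged over genes, each relative to its own mean over the 12 arrays, the neuronal members stayed between -0.12 and 0.12 and the glial members between -0.43 (CT10) and 0.24 (ZT6). Neuronal minus glial was -0.16 ± 0.04 in the LD light phase, -0.05 ± 0.09 in the LD dark phase, 0.11 ± 0.21 in the DD subjective day and 0.10 ± 0.08 in the DD subjective night (SD, n = 3 arrays each). It was negative on 5 of 6 LD arrays, ZT14 being the exception, and positive on 5 of 6 DD arrays, CT6 being the exception. Because each gene was centred over the same 12 arrays, the LD and DD means mirror each other by construction (-0.11 and 0.11). The count in DD is therefore not a separate observation from that in LD. The opposite signs restate the differences between the days of the same 7 genes. Single arrays weighed on the group means. With each array left out in turn, the DD subjective day gave 0.02 (without CT10) to 0.23 (without CT6), the DD subjective night 0.06 (without CT22) to 0.14 (without CT14), the LD dark phase -0.09 (without ZT14) to -0.01 (without ZT18) and the LD light phase -0.18 to -0.14. This is a description of 7 chosen genes and carries no test. The same measure over the wider lists given below was smaller, -0.10 to 0.06 in LD and -0.05 to 0.10 in DD, and overlapped between the days.

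**Figure D4:**
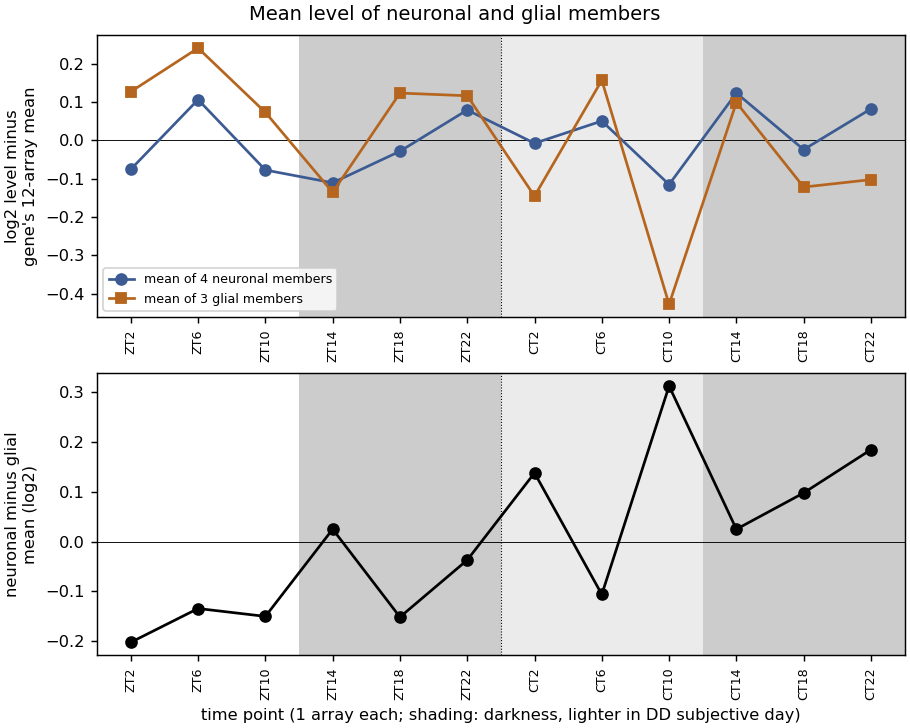
Top, mean log2 level of the 4 neuronal genes (blue circles) and the 3 glial genes (brown squares), each gene relative to its mean over the 12 arrays; bottom, their difference. The difference runs from -0.20 at ZT2 to 0.31 at CT10, where the glial mean is -0.43.

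Levels of the members were also compared pairwise across the 12 arrays. Of the 21 pairs of genes, 12 join a neuronal to a glial gene. Among the 21, 3 passed Benjamini-Hochberg adjustment of the permutation p of Pearson's r, and each was one of those 12. The permutation treated the 12 arrays as exchangeable, across the 4 groups, so shifts between groups count toward its p. The share of all pairs of probe sets with such an r was not counted. For elav and nrv2, r was 0.87 (adjusted permutation p = 0.0021) and Spearman's rho 0.83 (adjusted permutation p = 0.0283), r was 0.89 without the 2 arrays farthest from the median of elav, and 0.86 after removal of the group means. ChAT, through its leading probe set, and repo had r = 0.82 (adjusted permutation p = 0.0187) and rho = 0.71 (adjusted permutation p = 0.09), 0.62 without the 2 farthest arrays and 0.68 after removal of the group means. The 2 probe sets of ChAT had r = -0.33 with each other, so this holds for the leading one only.

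Gad1 and repo ran opposite to each other, with r = -0.73 (adjusted permutation p = 0.049), rho = -0.80 (adjusted permutation p = 0.0283) and r = -0.86 without the 2 farthest arrays. After removal of the group means r was -0.34, so most of that relation lay between the groups. Pairs within a class had r from -0.45 to 0.69 (6 neuronal pairs) and from 0.35 to 0.63 (3 glial pairs). All pairs share arrays and normalization.

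The probe sets most like a member, among 12441 or 12442 with 1 gene symbol, were ranked by Pearson's r over the 12 arrays, and no p is attached to such a choice. For repo they were alpha-Cat (0.97), which encodes the adherens junction protein alpha-catenin, CG3164 (0.93) and eIF4G1 (0.93), a translation initiation factor gene. For Gad1 they were pros (0.93), which encodes a homeodomain factor of neural precursors, CG7536 (0.93) and ppk18 (0.89). Those nearest Gs2 were ATP8A (0.94), Tsp42Ee (0.93) and the phosphatase gene Pp1-87B (0.90). The nearest to nrv2 were drongo (0.90), the autophagy gene Atg8a (0.90) and UGP (0.89), and to ChAT B4 (0.93), gw (0.92) and Eip63E (0.91). Those of elav and nSyb were drn (0.89), Atx2 (0.87) and CG6983 (0.87), and Tnks (0.90), CG6415 (0.87) and CG14591 (0.87). No other gene of the neuronal or glial lists was among them.

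Wider lists of neuronal and glial genes were read in the same fits. Of 39 neuronal genes 0 passed in any comparison. Between the days their median difference was 0.02, against 0.01 over all probe sets, with 22 positive and 17 negative. The vesicle chaperone gene Csp (-0.30, limma adjusted p = 0.189) and nwk, a regulator of synaptic growth (-0.26, adjusted p = 0.172), were lowest, but 2 further probe sets of nwk gave 0.14 and -0.03. The paralogs of elav, fne (-0.16) and Rbp9 (-0.22), were lower in DD at 6 and 5 of 6 hours, and neither passed (limma, adjusted p = 0.342 and 0.388). A dimmer probe set of Rbp9 gave 0.05. The septate and synaptic scaffold gene dlg1 had the largest light-dark value of the list in LD, -0.44 (limma, adjusted p = 0.193), and -0.17 through a second probe set.

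Of 37 wider glial genes 1 passed, in the contrast of the LD light phase with the DD subjective day, where 0.186% of all probe sets did. The passing gene was Gli, which encodes Gliotactin, a septate junction protein of the glial blood-brain barrier and of epithelia. It was higher in the light phase by 0.41 ± 0.08 (SE, limma, adjusted p = 0.0499). Its values were 5.79, 5.85 and 5.74 from ZT2 to ZT10, 5.56, 5.44 and 5.49 from ZT14 to ZT22, 5.44, 5.46 and 5.25 from CT2 to CT10 and 5.47, 5.26 and 5.34 from CT14 to CT22. The 3 light-phase arrays lay above the other 9, and the share of all probe sets that did so was not counted. The call held in 8 of 23 other fits, and 1 of the 8 changed only ChAT and so repeats the fit given here. It was lost with eIF-4a as a covariate (0.34, adjusted p = 0.529), where 2 probe sets passed over all. The eIF-4a measure averaged 3.08 in the LD light phase and 2.70 in the DD subjective day, so that fit cannot separate it from the contrast. With 1 array left out the call was lost in 10 of 12 fits, all but those without CT6 or CT14. Values in the lost fits were 0.34 (without CT10, adjusted p = 0.264) to 0.44 (without ZT10, adjusted p = 0.079). In this comparison the median of the 37 genes was 0.09 against -0.02 over all probe sets, with 25 positive and 12 negative. The septate junction gene cora had 0.45 (adjusted p = 0.0782).

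Eaat2, an excitatory amino acid transporter gene and the paralog of Eaat1, showed the largest difference between the days in the glial list. It read 7.79, 7.85, 7.81, 7.63, 7.76 and 7.61 in LD and 7.28, 7.48, 7.08, 7.56, 7.05 and 7.24 in DD. The days did not overlap, and DD was lower at 6 of 6 hours. The share of all probe sets that did the same was not counted, and 11.1% had an unadjusted p under 0.05 between the days (limma). The difference of -0.46 ± 0.08 (SE) lay just outside the threshold (limma, adjusted p = 0.0503), and it passed in 10 of 23 other fits, 4 of them among the 12 that left out 1 array. Among the 23, 1 that did not pass changed only ChAT and so repeats the fit given here. With the eIF-4a measure as a covariate the difference was -0.30 (adjusted p = 0.891), in a fit that cannot separate the measure from the day.

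**Figure D5:**
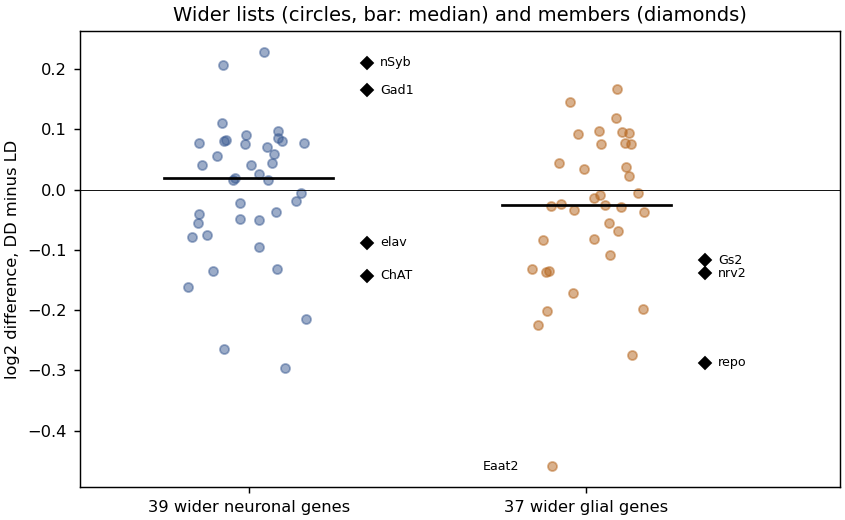
Log2 difference DD minus LD (vertical axis) of the 39 wider neuronal genes and the 37 wider glial genes (circles, with a bar at the median) and of the 7 members (black diamonds). The medians are 0.02 and -0.03, and Eaat2 lies lowest at -0.46.

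Partners of the members in transmitter handling gave no passing difference. The vesicular GABA transporter gene VGAT ranged from 4.74 to 4.92 over the 12 arrays and differed by 0.02 ± 0.05 between the days (SE, limma, adjusted p = 0.923), where Gad1 had 0.16. The GABA receptor subunit gene Rdl was at -0.37 ± 0.13 in the LD light phase against the dark phase (SE, adjusted p = 0.578), the same sign as Gad1. Of 10 GABA genes, 13 acetylcholine genes and 14 glutamate genes, Gad1, ChAT and Gs2 included, 0 passed in any of the 9 tests. For acetylcholine, the acetylcholinesterase gene Ace had the smallest p, in LD light phase minus DD subjective day (log2 difference 0.29, limma, unadjusted p = 0.0045, adjusted p = 0.209).

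The glial GABA transporter gene Gat differed by -0.03 ± 0.08 (SE) between the days, and Gs1, the mitochondrial glutamine synthetase paralog of Gs2, by 0.04 ± 0.06 (limma, adjusted p = 0.935 and 0.846). The sodium pump beta subunit genes nrv1 and nrv3 were at -0.17 ± 0.07 (adjusted p = 0.345) and -0.04 ± 0.09 (adjusted p = 0.914), where nrv2 had -0.14.

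Between the days, eIF-4a, muscle genes (11 of 13 with a positive difference, median 0.11) and male tract genes (20 of 21 with a negative one, median -0.09) also leaned one way. The median over all probe sets was 0.01. Other lists leaned less: 7 of 10 photoreceptor, 7 of 11 fat body and 18 of 30 gut genes were negative, and 7 of 11 eggshell and 5 of 9 hemocyte genes positive. Whether any of these is related to repo, nSyb or Gad1 was not tested. The centred male tract level ranged from -0.18 to 0.75 in LD and from -0.21 to 0.40 in DD. With eIF-4a as a covariate the differences were -0.22 for repo, 0.14 for nSyb and 0.12 for Gad1 (limma, adjusted p from 0.963 to 0.974), with the sign they had before, while those of Gs2 and nrv2 turned positive. With the gut and male tract levels as a covariate, repo had -0.29, nSyb 0.21 and Gad1 0.16 (adjusted p from 0.112 to 0.227), and all 7 members kept their sign. In that fit 40 probe sets passed between the days, against 3 without the covariate. Without ZT2, ZT18 and CT2 the differences of repo, nSyb and Gad1 were -0.30, 0.15 and 0.14 (adjusted p from 0.322 to 0.584). The counts of passing members were 0 in all 9 tests under these 3 settings.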

How the data were processed

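RNA from heads was hybridised to 12 arrays, 1 per time point, from about 25 µg of total RNA each, per the labels. The deposited values are log2 signals that the authors made with RMA, per the submitters' processing notes (version: not given in the sources used here). No detection calls were used, and the number of arrays limits precision. Of 14010 probe sets, 44 controls were left out and 13966 tested; 12443 have 1 gene symbol. No genome or sequence table was used, so no positions or sequences are given.

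Models were fitted with limma 3.58.1 (R 4.3.3; moderated variances with an intensity trend) over all 12 arrays and all probe sets: 1 mean per group with 6 contrasts, and a 24 h cosine and sine per day with 3 F tests. P-values were Benjamini-Hochberg adjusted over the 13966 probe sets, threshold 0.05. Fits were tested on simulated data with independent noise and a shift or amplitude of 1 log2 unit in 200 probe sets. That is larger than any member difference given here, so it does not show how the fits do at those sizes. Correlations used 100000 permutations. Alternatives covered the prior, array weights, dim probe sets, normalization, covariates, left-out arrays and clock hour as a block. Members, lists and the alternative without ZT2, ZT18 and CT2 were chosen with earlier results of these data known. Named were all members, wider-list genes that passed or had the 4 smallest p of a list, the members' paralogs and partners, and the 3 probe sets most like each member. Listed genes without a probe set of their symbol were not analysed here.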

Additional observations from a re-analysis of the deposited data

How the results depend on the processing

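The count of passing members was 0 in the 9 tests as reported and stayed 0 under the other settings, with 3 exceptions. With clock hour as a replicate block, repo passed in LD light minus DD day (1 member, limma adjusted p = 0.0417) and in DD minus LD (1 member, adjusted p = 0.0202). No label pairs arrays of one clock hour beyond that hour. The correlation of their deviations from the group means, across probe sets, ran from 0.03 (hour 14) to 0.45 (hour 2) and was over 0.1 at 4 of 6 hours, short of the rule that asks for all, so this block is an alternative. When 1 array at a time was left out, the count for LD light minus DD day ranged from 0 to 1, the 1 being Gs2 without CT6. Over the group contrasts, 40 of 960 member values changed sign, none of them past the threshold; the cause was not tested. Neuronal minus glial in the LD light phase moved from -0.16 to -0.21 without ChAT, -0.11 without Gad1 and -0.12 without repo, by its construction from few genes. In the other groups the moves were within 1 SD: the LD dark value of -0.05 was -0.02 without nSyb, and the DD subjective night value of 0.10 was 0.03 without repo. Leaving out single arrays, added for this measure after the data were seen, gave -0.18 to -0.14 in the LD light phase. Over all probe sets the count for DD minus LD was 3, and 0 to 118 under the other settings (118 with the clock hour block, 40 with the gut and male tract covariate). That for LD light minus DD day was 26 (1 to 168), for LD light minus LD dark 18 (1 to 54), for DD day minus DD night 9 (0 to 18), for the LD rhythm 15 (1 to 38), for the DD rhythm 1 (1 to 2), for the difference of rhythms 1 (0 to 3) and for the difference of the contrasts 0 (0 to 4). The settings for Gli and Eaat2 were read after their values were seen. The dim signal of elav limits what RMA can show of it.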

Other observations

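The CT10 array held the lowest value of 3 of the 7 members (elav, Gs2 and nrv2), of 10 of the 37 wider glial genes and of 5 of the 39 wider neuronal genes. Over all probe sets, 9.59% had their lowest value at CT10, and 16.0% their highest, the largest share of highest values among the 12 arrays. The lowest value of 10 of the 39 wider neuronal genes lay at ZT2, where 11.3% of all probe sets had theirs, against 1 of the 37 wider glial genes. ZT6 held the highest value of 3 of the 7 members (elav, ChAT and repo), against 7.63% of all probe sets. These counts are a description with no test.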
